A study of Arabidopsis thaliana with 30 samples.

Results

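The se-2 hen2-2 double mutant of Arabidopsis thaliana was compared with wild type (WT) by RNA-seq of rosette leaves, using 3 libraries of each genotype, which are 6 of the 30 libraries of the series. The libraries were chosen by their labels alone, as the double mutant and WT columns of the experiment grown at 20 °C, and every gene of the table was then considered. The double mutant was obtained by crossing hen2-2, a T-DNA insertion in HEN2 (line GK774_H07), with se-2, a partial-loss T-DNA allele of SE (line SAIL_44_G12), and the labels write it as hen2-2 x se2. WT was Col-0, and the plants of both genotypes were 4 weeks old and grown in soil. The same experiment held 3 libraries each of the hen2-2 and se-2 single mutants, and an earlier experiment at 22 °C held 3 hen2-2 and 3 WT libraries. The labels call the samples biological replicates and do not say whether each came from a single plant or a pool, so p values measure the spread between these samples.

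SERRATE (SE) is a zinc finger protein that joins the DICER-LIKE1 complex and helps it to cut primary miRNA transcripts (pri-miRNAs) into mature miRNAs, and it also takes part in splicing. HEN2 is a nuclear RNA helicase and a component of the NEXT complex, which hands RNAs to the exosome, the 3′ to 5′ exonuclease complex that degrades faulty and surplus transcripts. Known substrates of these pathways include pri-miRNAs, precursors of small nuclear and small nucleolar RNAs (snRNAs and snoRNAs), antisense and other non-coding RNAs and mis-spliced transcripts.

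The se-2 hen2-2 libraries held 138.0, 47.7 and 52.2 M counts (M, 1000000), against 120.6, 130.0 and 56.7 M in WT. Chloroplast genes took between 50.6 and 71.8% of a library. Levels are given as counts per 1000000 (CPM), on library sizes scaled by the TMM method, so they are shares of a library rather than amounts per cell. In leaf tissue, fewer cells of a type and less RNA per cell cannot be told apart. The replicate 1 libraries of both genotypes stood apart from the other libraries, and the clock gene LHY was at 0.225, 9.19 and 11.3 CPM in se-2 hen2-2, against 0.347, 8.80 and 14.9 CPM in WT. Marker genes of flowers, seeds and roots were at or near 0, with summed levels of at most 0.49 CPM in any of the 6 libraries.

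Both mutated genes were lower in the double mutant. HEN2 (AT2G06990, chr2:2894904-2902020 of TAIR10) was at 2.29, 2.45 and 4.36 CPM in se-2 hen2-2 libraries, against 6.28, 8.11 and 6.61 CPM in WT libraries. SE (AT2G27100, chr2:11572397-11576658) was at 2.61, 3.02 and 3.26 CPM in se-2 hen2-2 libraries, against 5.59, 5.92 and 6.84 CPM in WT libraries. No mutant library overlapped a WT library for either gene. The log2 fold change was -1.21 ± 0.25 for HEN2 (± standard error, n = 3 each, adjusted p = 0.026) and -1.05 ± 0.18 for SE (adjusted p = 0.012). These are counts over whole genes and do not show which side of the insertions the reads came from. Both calls were lost in some fits with a library left out. HEN2 kept its call without se-2 hen2-2 replicate 3 only (adjusted p = 0.0055) and reached an adjusted p of 0.12 without replicate 2 of either genotype. SE lost its call without se-2 hen2-2 replicate 2 (adjusted p = 0.052) or WT replicate 2 (adjusted p = 0.051).

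More genes rose than fell in se-2 hen2-2. Of 19454 genes tested, 333 rose (1.71%) and 130 fell (0.668%) at an adjusted p under 0.05. Called or not, 9857 of the 19454 had a log2 fold change above 0. The median log2 fold change of the raised genes was 1.75 (range 0.62 to 11.13) with a median level of 7.84 CPM in se-2 hen2-2 against 1.91 CPM in WT. Lowered genes changed less, with a median of -1.02, and 59 of the 130 changed by less than 2-fold. In all, 463 genes (2.38%) were called. Mutant and WT libraries were fully separate for all of these, as they were for 21.0% of all genes tested. The counts changed when a library was left out. Without WT replicate 2, 124 genes rose and 35 fell, and without se-2 hen2-2 replicate 2, 156 rose and 28 fell. Numbers were also lower by over 1.5 times without WT replicate 1 (181 raised and 74 lowered), WT replicate 3 (176 and 65) or se-2 hen2-2 replicate 3 (195 and 86). With each of the 6 libraries left out in turn, 106 of the 333 raised and 21 of the 130 lowered genes kept their call every time. A further 35 raised and 23 lowered genes were called in none of these fits. No called gene changed direction in any of these fits, but the full separation of their libraries made a change hardly possible.

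The 2 directions differed in which kinds of genes they held. Among the raised genes were 243 protein-coding genes, 29 miRNA genes, 22 long non-coding RNA (lncRNA) genes, 14 snoRNA genes, 12 snRNA genes, 10 other non-coding RNA genes, 2 antisense RNA genes and 1 chloroplast gene. The lowered genes were 116 protein-coding genes, 13 chloroplast genes and 1 lncRNA gene. The share of raised genes was 35.8% of tested miRNA genes and 28.6% of tested snRNA genes, against 1.32% of tested protein-coding genes. The median log2 fold change was 3.01 over 81 miRNA genes, 1.13 over 42 snRNA genes, 1.14 over 216 snoRNA genes and 0.74 over 310 lncRNA genes, beside 0.01 over all genes tested. None of the 27 tRNA genes tested passed the edgeR test (median 0.72), nor an unadjusted p under 0.05 or DESeq2. A gene that reaches the minimum count through the mutant libraries alone has to be higher there, so these medians describe the tested genes and not all annotated ones: 81 of 324 miRNA genes and 310 of 3480 lncRNA genes were tested.

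**Figure D1:**
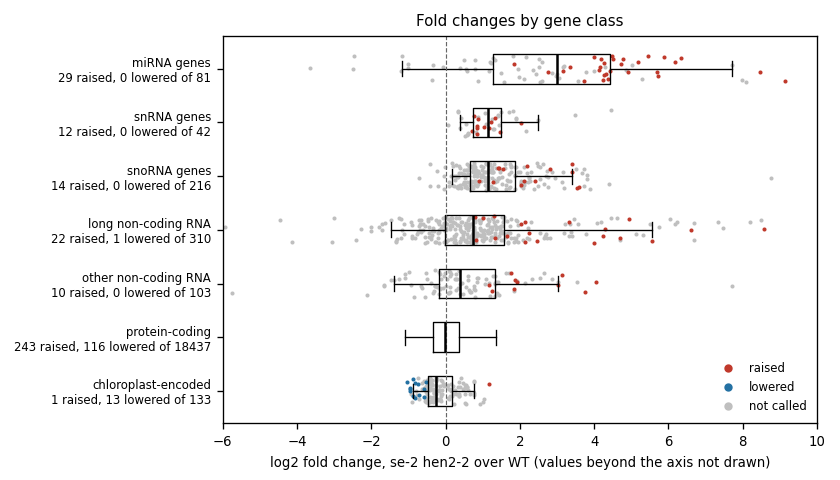
Log2 fold change of se-2 hen2-2 over WT for each class of genes, 1 point per gene except for protein-coding genes, with boxes from the lower to the upper quartile, the median as a thick line and whiskers from the 5th to the 95th percentile. The medians of miRNA (3.01), snRNA (1.13) and snoRNA (1.14) genes lie right of 0, that of chloroplast-encoded genes (-0.25) lies left of it, and the numbers raised and lowered of those tested stand beside each class.

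Among classes of 10 or more tested genes, miRNA genes had the highest share of raised members. For counting, the authors added pri-miRNA coordinates to the gene annotation, so the values measure reads over these regions. The authors report that in hen2 mutants such reads come from precursors and from processing intermediates, among them introns and by-products of maturation. A value is therefore not the level of the intact primary transcript alone. It does not measure the mature miRNA, which was not analysed here. The mature sequences from RefSeq (TAIR10.1) are shown for most of the raised genes described below and for others that share a seed, so that related genes can be seen. The seed (bases 2 to 8) is in capitals. All 29 raised genes had a mature sequence there, 56 in all with 45 different seeds. MIR159a and MIR159b have the same seed, as have MIR396a with MIR396b, MIR165a with MIR166a and MIR166b, MIR168a with MIR168b, MIR398b with MIR398c, MIR157a with MIR157c and MIR171b with MIR171c.
miR159a: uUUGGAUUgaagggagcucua
miR159b-3p: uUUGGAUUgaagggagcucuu
miR167a-5p: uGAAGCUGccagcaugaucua
miR156c-5p: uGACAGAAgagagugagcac
miR157c-5p: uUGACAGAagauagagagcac
miR396a-5p: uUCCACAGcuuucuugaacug
miR396b-5p: uUCCACAGcuuucuugaacuu
miR168a-5p: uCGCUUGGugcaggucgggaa
miR398b-3p: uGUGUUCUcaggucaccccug
miR166a-3p: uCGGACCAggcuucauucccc
miR165a-3p: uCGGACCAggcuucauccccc
miR173-5p: uUCGCUUGcagagagaaaucac
miR171b-3p: uUGAGCCGugccaauaucacg
miR390a-5p: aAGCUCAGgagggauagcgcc

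MIR159b (AT1G18075, precursor at chr1:6220646-6220841), whose miRNA targets GAMYB-like transcription factors, had the smallest adjusted p of the class. It was at 14.3, 8.42 and 9.24 CPM in se-2 hen2-2 libraries, against 0.456, 0.758 and 0.472 CPM in WT libraries (log2 fold change 4.23 ± 0.28, adjusted p = 3.6e-05). Its paralogue MIR159a (chr1:27713233-27713416) was at 7.35, 12.4 and 10.5 CPM in se-2 hen2-2 libraries, against 0.496, 0.478 and 0.618 CPM in WT libraries (log2 fold change 4.25 ± 0.31, adjusted p = 6.1e-05). The highest WT library was below the lowest double mutant library by over 10-fold for both genes. MIR167a, whose miRNA targets the auxin response factors ARF6 and ARF8, was at 17.3, 15.8 and 8.39 CPM in se-2 hen2-2 libraries, against 0.793, 0.508 and 0.521 CPM in WT libraries (log2 fold change 4.51 ± 0.37, adjusted p = 0.00011). MIR156c and MIR157c give rise to related miRNAs that target SPL genes, which set the change from juvenile to adult leaves. MIR156c was at 3.81, 7.40 and 6.53 CPM in se-2 hen2-2 libraries, against 0.228, 0.341 and 0.277 CPM in WT libraries (log2 fold change 4.37 ± 0.37, adjusted p = 0.00012). MIR157c was at 20.1, 21.4 and 32.8 CPM in se-2 hen2-2 libraries, against 0.426, 0.470 and 1.89 CPM in WT libraries (log2 fold change 4.78 ± 0.59, adjusted p = 0.0018), and WT replicate 3 was higher than the other WT libraries. All of these genes kept their call with each library left out.

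MIR398b, whose miRNA targets copper/zinc superoxide dismutases, was at 15.9, 43.1 and 20.5 CPM in se-2 hen2-2 libraries, against 0.555, 0.993 and 0.635 CPM in WT libraries (log2 fold change 5.17 ± 0.54, adjusted p = 0.00055), and the near-identical MIR398c was at 4.74, 8.78 and 4.87 CPM in se-2 hen2-2, against 0.208, 0.599 and 0.195 CPM in WT (log2 fold change 4.15 ± 0.58, adjusted p = 0.0038). Reads from such copies can be split between them in counting, so the level of each is less certain than that of both. MIR168a, from which the miRNA that targets AGO1 is made, was at 8.36, 8.40 and 6.75 CPM in se-2 hen2-2, against 0.317, 0.235 and 0.700 CPM in WT (log2 fold change 4.27 ± 0.45, adjusted p = 0.00055). MIR396a, a source of the miRNA against growth-regulating factors (GRFs), was at 2.77, 3.19 and 2.53 CPM in se-2 hen2-2, against 0.0595, 0.0228 and 0.0651 CPM in WT (log2 fold change 5.88 ± 0.52, adjusted p = 0.00018). MIR173, whose miRNA starts the production of trans-acting siRNAs from TAS1 and TAS2, was at 1.79, 5.06 and 3.70 CPM in se-2 hen2-2, against 0.0496, 0.0303 and 0.130 CPM in WT (log2 fold change 5.73 ± 0.80, adjusted p = 0.0038). For each of these genes all se-2 hen2-2 libraries were above all WT libraries.

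At the low end, MIR390a and MIR865 had no count in any WT library. MIR390a, whose miRNA cuts the TAS3 transcript, was at 0.297, 0.574 and 0.531 CPM in se-2 hen2-2, which is at least 40.4-fold higher when WT is set to a floor of 3 counts over the group. MIR865 was at 0.635, 0.787 and 0.832 CPM, at least 70.1-fold higher. The call of MIR390a (adjusted p = 0.022) held without se-2 hen2-2 replicate 1 only (0.040) and that of MIR865 (0.025) likewise (0.044), with adjusted p of up to 0.095 and 0.10 without WT replicate 2. Of the 29 raised miRNA genes, 17 kept their call with each library left out, beside 106 of all 333 raised genes, and 2 were called in none of these fits. Leaving out WT replicate 2 left 18 raised, leaving out WT replicate 1 left 20, and each of the other libraries left between 21 and 26. No miRNA gene fell, and 10 of the 81 tested had values below 0, the median staying at 3.01 when the 5 genes with no count in a group were set to their bounds.

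**Figure D2:**
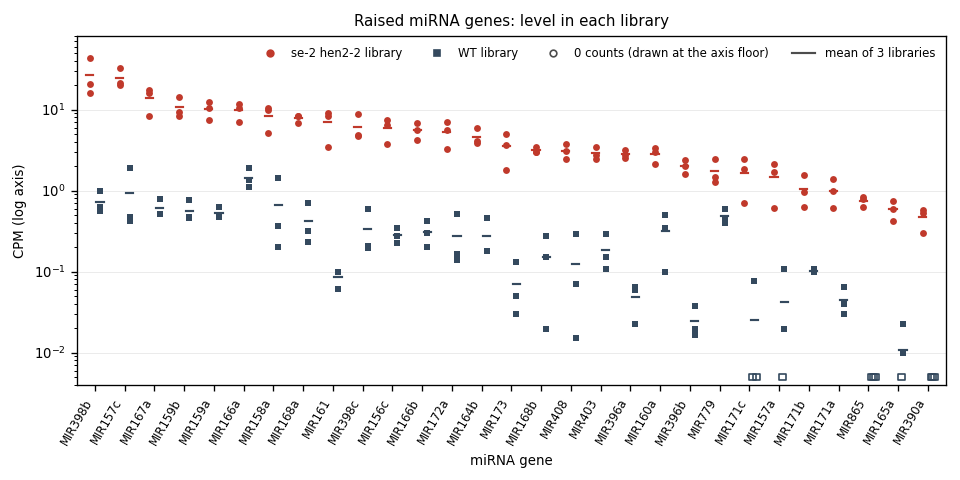
Level in CPM (log axis) of the 29 raised miRNA genes in each se-2 hen2-2 library (red circles) and each WT library (dark squares), ordered by the mean in se-2 hen2-2, with the mean of the 3 libraries as a bar and libraries at 0 counts drawn open at the axis floor. For every gene the 3 se-2 hen2-2 libraries lie above the 3 WT libraries, and MIR390a and MIR865 have no count in WT.

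Few of the genes that miRNAs act on were called. Of 71 known miRNA targets tested, 2 rose (2.82%, near the 1.71% of all genes) and none fell, with 45 above 0 and a median log2 fold change of 0.22. SPL9, a target of miR156, was at 1.62, 2.83 and 2.34 CPM in se-2 hen2-2 libraries, against 0.545, 0.849 and 0.765 CPM in WT libraries (log2 fold change 1.64 ± 0.33, adjusted p = 0.024). AGO2, an Argonaute protein whose transcript is cut by miR403, was at 11.6, 13.5 and 9.03 CPM in se-2 hen2-2 libraries, against 4.51, 4.69 and 7.37 CPM in WT libraries (log2 fold change 1.05 ± 0.22, adjusted p = 0.028). The groups did not overlap for either gene, yet SPL9 was called without se-2 hen2-2 replicate 1 only (0.022) and reached 0.10 without se-2 hen2-2 replicate 2, and AGO2 lost its call without se-2 hen2-2 replicate 1 or 2 or WT replicate 1 or 2 (adjusted p up to 0.14). AGO1, which loads most miRNAs, was at 30.1, 30.3 and 39.7 CPM in se-2 hen2-2, against 22.0, 26.0 and 21.6 CPM in WT and did not pass the test (adjusted p = 0.17). Of 14 genes of miRNA biogenesis and action, AGO2 rose and SE fell, and the other 12 did not pass the test.

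Among 18 genes of NEXT and the exosome, 1 rose beside the fall of HEN2. RRP46, a subunit of the exosome core, was at 3.55, 4.21 and 4.43 CPM in se-2 hen2-2 libraries, against 1.01, 1.54 and 1.11 CPM in WT libraries (log2 fold change 1.73 ± 0.28, adjusted p = 0.0079), with no overlap and a call in every fit with a library left out. RRP44A, the nuclear exonuclease of the exosome, was at 5.78, 3.25 and 3.52 CPM in se-2 hen2-2, against 7.03, 7.97 and 9.63 CPM in WT, below WT in all libraries but not past the threshold (adjusted p = 0.056). The other 15 members did not pass the test.

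All 42 snRNA genes tested had a fold change above 0, and 12 of them rose. snRNAs are the RNA core of the spliceosome. U4.8 was at 50.8, 47.4 and 36.8 CPM in se-2 hen2-2 libraries, against 21.1, 18.6 and 18.0 CPM in WT libraries (log2 fold change 1.23 ± 0.16, adjusted p = 0.0022), and U2.5 was at 139, 148 and 114 CPM in se-2 hen2-2, against 70.5, 63.4 and 60.0 CPM in WT (log2 fold change 1.05 ± 0.14, adjusted p = 0.0037). U4atac, of the minor spliceosome that removes a rare class of introns, was at 66.0, 103 and 81.0 CPM in se-2 hen2-2, against 18.6, 16.9 and 25.8 CPM in WT (log2 fold change 2.03 ± 0.31, adjusted p = 0.0067). Each of these genes had its lowest mutant library above its highest WT library. U1, U2 and U4 RNAs are made from several near-identical genes, and the division of reads between copies is uncertain. Summed over all annotated snRNA genes, the level was between 4500.04 and 5314 CPM in se-2 hen2-2 and between 2674 and 2949 CPM in WT. Between 7 (without WT replicate 2) and 9 snRNA genes rose when a library was left out, with 8 without WT replicate 3, and 7 of the 12 kept their call with each library left out. Another 3 of the 12 were called in none of these fits.

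snoRNAs guide the modification and cutting of ribosomal RNA. Of 216 snoRNA genes 208 had a fold change above 0, and 14 rose (6.48%, beside 1.71% of all genes). U3D, a gene for the U3 snoRNA needed to cut the ribosomal RNA precursor, was at 226, 329 and 241 CPM in se-2 hen2-2 libraries, against 84.9, 80.6 and 105 CPM in WT libraries (log2 fold change 1.56 ± 0.20, adjusted p = 0.0020). Its copy U3B was at 226, 308 and 234 CPM in se-2 hen2-2, against 100.4, 96.0 and 119 CPM in WT (log2 fold change 1.29 ± 0.18, adjusted p = 0.0038). AT1G08643, annotated as a snoRNA gene, had a larger fold and was at 32.0, 59.5 and 47.8 CPM in se-2 hen2-2, against 2.81, 2.70 and 5.99 CPM in WT (log2 fold change 3.60 ± 0.47, adjusted p = 0.0024). All 3 genes were called with each library left out. The class was less even than these examples: 6 genes rose without se-2 hen2-2 replicate 2, WT replicate 1 or WT replicate 2, 9 without se-2 hen2-2 replicate 3, 11 without WT replicate 3 and 17 without se-2 hen2-2 replicate 1.

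Long and other non-coding transcripts rose in small numbers and by large folds. Of 310 lncRNA genes tested, 22 rose (7.10%, beside 1.71% of all genes) and 1 fell. AT5G15845 (chr5:5173081-5178291) was at 5.21, 3.70 and 5.61 CPM in se-2 hen2-2 libraries, against 0.179, 0.0986 and 0.212 CPM in WT libraries (log2 fold change 4.93 ± 0.41, adjusted p = 0.00011). AT1G05163 had no WT count and was at 2.03, 3.85 and 3.10 CPM in se-2 hen2-2, at least 262-fold higher, but was called without se-2 hen2-2 replicate 1 only (0.034, up to 0.095 otherwise). AT4G31408, an unclassified non-coding RNA (chr4:15241687-15242987), was at 10.9, 11.8 and 9.93 CPM in se-2 hen2-2, against 0.684, 0.614 and 1.14 CPM in WT (log2 fold change 3.76 ± 0.37, adjusted p = 0.00034). Both genes with counts in WT were clear of overlap. GUT15, a long-known non-coding transcript, was at 33.5, 30.6 and 30.3 CPM in se-2 hen2-2, against 15.3, 10.7 and 15.8 CPM in WT (log2 fold change 1.18 ± 0.19, adjusted p = 0.0078). Of the antisense RNA genes, AT4G00975 was at 56.8, 86.3 and 62.3 CPM in se-2 hen2-2, against 1.92, 4.54 and 5.48 CPM in WT (log2 fold change 4.11 ± 0.40, adjusted p = 0.00034) and AT2G31902 at 6.23, 4.04 and 5.74 CPM in se-2 hen2-2, against 0.704, 0.849 and 0.586 CPM in WT (log2 fold change 2.89 ± 0.31, adjusted p = 0.00068). The libraries were stranded, but whether the counting used the strand is not given in the sources used here, so reads of such genes cannot be told apart from those of the gene opposite. Without a library, between 10 (se-2 hen2-2 replicate 2, WT replicate 1) and 21 lncRNA genes rose, with 11 without WT replicate 2 and 12 without WT replicate 3.

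Some raised genes were neighbours of one another. Of the 332 raised nuclear genes, 17 (5.12%) had another raised gene overlapping or within 1000 bases, and 1.78% of all nuclear genes tested had a raised gene that near. None of the 117 lowered nuclear genes had a lowered neighbour, and 0.655% of all nuclear genes tested had a lowered gene that near, so little can be read from it. AT4G31408 lies beside the raised AT4G31405, which was at 1.57, 1.32 and 1.72 CPM in se-2 hen2-2, against 0.0992, 0.0834 and 0.228 CPM in WT and was called without se-2 hen2-2 replicate 1 or WT replicate 3 only, and MIR865 lies in a run with AT5G15843 and AT5G15845. Of the 17 genes, 8 overlap their raised neighbour in the annotation, so their counts may hold the same reads. ABCC7, an ABC transporter gene, overlaps SERAT2;2, a serine acetyltransferase gene of cysteine synthesis. ABCC7 was at 12.4, 17.3 and 15.4 CPM in se-2 hen2-2 libraries, against 0.873, 0.819 and 0.342 CPM in WT libraries (log2 fold change 4.44 ± 0.34, adjusted p = 9.8e-05), and SERAT2;2 was at 11.5, 20.8 and 16.4 CPM in se-2 hen2-2, against 7.74, 5.42 and 6.88 CPM in WT (log2 fold change 1.28 ± 0.22, adjusted p = 0.011, and 0.065 without WT replicate 2). The NBS-LRR genes AT1G12290 (log2 fold change 2.58 ± 0.26, adjusted p = 0.00053) and SUMM2 (log2 fold change 0.88 ± 0.21, adjusted p = 0.049), of a family of disease resistance proteins, overlap in the same way. SUMM2 was called without WT replicate 1 only (0.037), with 0.21 without WT replicate 2.

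Of the protein-coding genes, a sugar transporter family gene, AT3G05165 (chr3:1457381-1462963), had the smallest adjusted p of the whole comparison. It was at 35.5, 28.9 and 26.4 CPM in se-2 hen2-2 libraries, against 2.66, 2.53 and 2.78 CPM in WT libraries (log2 fold change 3.51 ± 0.19, adjusted p = 1.1e-05). AT1G13880, annotated with an ELM2 domain, was at 13.9, 13.4 and 13.4 CPM in se-2 hen2-2, against 3.41, 2.68 and 3.17 CPM in WT (log2 fold change 2.13 ± 0.15, adjusted p = 6.1e-05), and AT5G25280, a serine-rich protein gene, at 73.1, 58.8 and 61.2 CPM in se-2 hen2-2, against 10.3, 10.2 and 15.5 CPM in WT (log2 fold change 2.42 ± 0.20, adjusted p = 0.00011). None of these genes overlapped between the genotypes, and all were called with each library left out. NUDT24, a nudix hydrolase gene, was almost absent from WT, at 6.29, 12.7 and 9.40 CPM in se-2 hen2-2, against 0, 0.0607 and 0 CPM in WT (log2 fold change 8.46 ± 1.22, adjusted p = 0.0046).

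Many genes of sulfur limitation were raised. Of 14 tested genes that are known to rise when sulfur is short, 8 rose (57.1%, beside 1.71% of all genes) and none fell. All 14 were above 0, beside 9857 of all 19454 genes, and the median log2 fold change was 3.14. Their summed level was between 155 and 283 CPM in se-2 hen2-2, against 42.9 to 64.6 CPM in WT. LSU1, a small protein of the RESPONSE TO LOW SULFUR family, was at 23.7, 19.0 and 15.0 CPM in se-2 hen2-2 libraries, against 0.218, 0.0228 and 0.195 CPM in WT libraries (log2 fold change 7.12 ± 0.69, adjusted p = 0.00034). SDI1, which restrains glucosinolate synthesis when sulfur is short, was at 13.7, 4.15 and 3.74 CPM in se-2 hen2-2 libraries, against 0.0893, 0 and 0 CPM in WT libraries (log2 fold change 7.81 ± 1.09, adjusted p = 0.0038). GGCT2;1, an enzyme that breaks down glutathione, was at 9.82, 9.93 and 4.62 CPM in se-2 hen2-2 libraries, against 0.0793, 0.0531 and 0.244 CPM in WT libraries (log2 fold change 6.14 ± 0.80, adjusted p = 0.0025). These 3 genes had mutant libraries well above WT and kept their call with each library left out.

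The other 5 raised members of the sulfur list were less firm. APR2 and APR3 encode adenylylsulfate reductase, the enzyme that commits sulfate to reduction. APR2 was at 50.7, 41.7 and 35.8 CPM in se-2 hen2-2, against 13.4, 16.9 and 21.5 CPM in WT (log2 fold change 1.31 ± 0.27, adjusted p = 0.025) and APR3 at 59.3, 43.7 and 34.0 CPM in se-2 hen2-2, against 17.1, 9.57 and 15.7 CPM in WT (log2 fold change 1.69 ± 0.33, adjusted p = 0.021). LSU2 was at 19.0, 10.4 and 5.52 CPM in se-2 hen2-2, against 0.863, 0.356 and 0.830 CPM in WT (log2 fold change 4.11 ± 0.71, adjusted p = 0.012), LSU3 at 6.69, 4.08 and 4.94 CPM in se-2 hen2-2, against 0.288, 0.0455 and 0 CPM in WT (log2 fold change 5.48 ± 1.06, adjusted p = 0.019) and SHM7, of the serine hydroxymethyltransferase family, at 42.8, 19.8 and 19.1 CPM in se-2 hen2-2, against 9.04, 4.66 and 7.58 CPM in WT (log2 fold change 1.94 ± 0.39, adjusted p = 0.023). No WT library overlapped a mutant library for these genes. Without WT replicate 2 none of the 5 passed the test (adjusted p = 0.11, 0.11, 0.069, 0.11 and 0.11 in that order), and 3 list members were then raised. The number was 5 without se-2 hen2-2 replicate 1 or 2 or WT replicate 3, 7 without se-2 hen2-2 replicate 3 and 8 without WT replicate 1. The 17 genes of the aliphatic glucosinolate pathway, which uses much sulfur, had none past the edgeR test and a median of -0.07, with 1 above and 3 below WT at an unadjusted p under 0.05 and none called by DESeq2. Over all 19454 genes tested, 1570 were above and 1268 below WT at that unadjusted p.

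Genes of the flavonoid and anthocyanin pathway, which makes the red and purple pigments of leaves, were also raised. Of 12 tested, 6 rose (50.0%, beside 1.71% of all genes) and none fell, all 12 were above 0, and the median was 3.99. The summed level was between 208 and 273 CPM in se-2 hen2-2, against 5.85 to 15.2 CPM in WT. F3H, flavanone 3-hydroxylase, was at 26.0, 44.7 and 36.6 CPM in se-2 hen2-2 libraries, against 0.684, 1.63 and 2.60 CPM in WT libraries (log2 fold change 4.46 ± 0.63, adjusted p = 0.0043). DFR, the first enzyme particular to anthocyanins, was at 70.2, 80.9 and 59.1 CPM in se-2 hen2-2 libraries, against 0.238, 1.27 and 2.10 CPM in WT libraries (log2 fold change 5.88 ± 1.13, adjusted p = 0.019). PAP1, a MYB transcription factor that switches the pathway on, was at 6.25, 10.2 and 10.6 CPM in se-2 hen2-2 libraries, against 0.337, 0.296 and 0.895 CPM in WT libraries (log2 fold change 4.18 ± 0.74, adjusted p = 0.013). WT replicate 1 was the lowest WT library for F3H and DFR, and no library of either genotype overlapped the other for the 3 genes.

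F3H alone of the list kept its call with each library left out. F3'H, flavonoid 3′-hydroxylase, was at 6.82, 6.02 and 8.18 CPM in se-2 hen2-2, against 0.0694, 0.0758 and 0 CPM in WT (log2 fold change 6.98 ± 1.16, adjusted p = 0.0098, and 0.056 without WT replicate 2). PAP1 lost its call without WT replicate 1 (0.060) or WT replicate 2 (0.078), and DFR without se-2 hen2-2 replicate 2 or any WT library (adjusted p up to 0.11, without WT replicate 2). CHS, chalcone synthase, was at 19.7, 34.8 and 27.2 CPM in se-2 hen2-2, against 1.38, 4.22 and 4.51 CPM in WT (log2 fold change 3.02 ± 0.63, adjusted p = 0.027) and LDOX, leucoanthocyanidin dioxygenase, at 67.3, 72.3 and 57.1 CPM in se-2 hen2-2, against 0.0793, 1.35 and 2.02 CPM in WT (log2 fold change 5.85 ± 1.26, adjusted p = 0.032). Both were called without se-2 hen2-2 replicate 1 only (0.035 and 0.047), with up to 0.10 for CHS and 0.14 for LDOX without WT replicate 2. The number raised was 1 without WT replicate 2, 3 without se-2 hen2-2 replicate 2, WT replicate 1 or WT replicate 3, 4 without se-2 hen2-2 replicate 3 and 7 without se-2 hen2-2 replicate 1. Named after their values were seen, GSTF12, a glutathione S-transferase that carries anthocyanins to the vacuole, was at 34.8, 37.2 and 23.7 CPM in se-2 hen2-2, against 0.0694, 0.720 and 1.32 CPM in WT (log2 fold change 5.54 ± 0.99, adjusted p = 0.013, and 0.080 without WT replicate 2), and CHIL, a helper of chalcone synthase, was at 25.6, 43.9 and 30.9 CPM in se-2 hen2-2, against 1.34, 1.59 and 2.59 CPM in WT (log2 fold change 4.19 ± 0.67, adjusted p = 0.0078, and 0.054 without WT replicate 2).

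Starch genes were raised in part. APL3, a large subunit of ADP-glucose pyrophosphorylase, the enzyme that commits glucose to starch, was at 30.0, 53.8 and 37.5 CPM in se-2 hen2-2 libraries, against 6.98, 6.95 and 8.14 CPM in WT libraries (log2 fold change 2.46 ± 0.22, adjusted p = 0.00017). APL4, another large subunit, was at 5.37, 8.53 and 11.3 CPM in se-2 hen2-2 libraries, against 1.15, 1.64 and 1.43 CPM in WT libraries (log2 fold change 2.57 ± 0.30, adjusted p = 0.0013). GPT2, which carries glucose 6-phosphate into plastids and is known to follow sugar supply, was at 2.43, 14.4 and 9.08 CPM in se-2 hen2-2 libraries, against 0.198, 0.281 and 0.488 CPM in WT libraries (log2 fold change 4.77 ± 1.03, adjusted p = 0.032). These 3 of 8 starch and sugar genes tested rose (37.5%, beside 1.71% of all genes), and their groups were separate. The median of the 8 was 2.09, and the other 5 did not pass the test. GPT2 was called without se-2 hen2-2 replicate 1 only (0.023) and reached 0.16 without WT replicate 2, whereas APL3 and APL4 were called in every fit with a library left out.

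**Figure D3:**
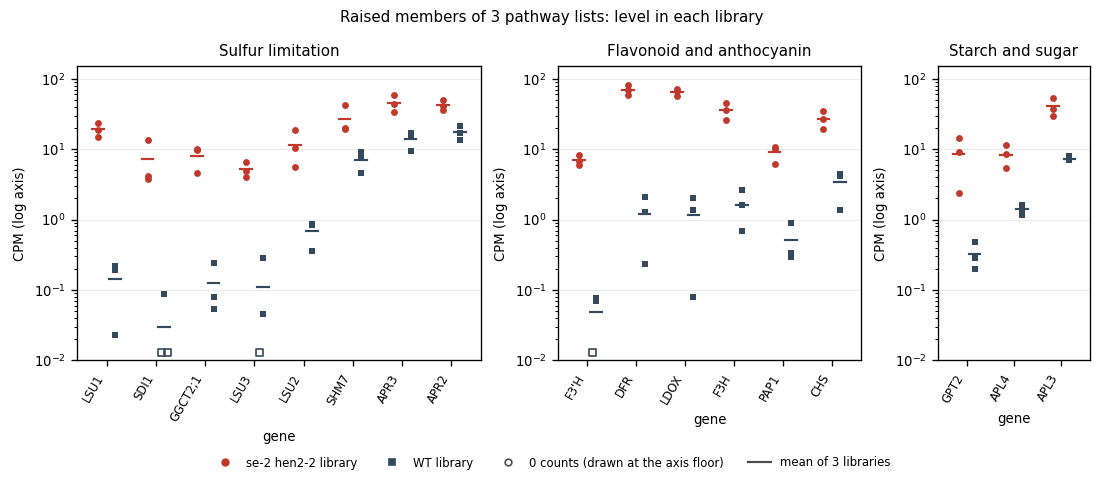
Level in CPM (log axis) of the raised members of the sulfur limitation, flavonoid and starch lists in each se-2 hen2-2 library (red circles) and each WT library (dark squares), with the mean of the 3 libraries as a bar and libraries at 0 counts drawn open at the axis floor. LSU1 lies between 15.0 and 23.7 CPM in se-2 hen2-2 and at most 0.218 CPM in WT, and APL3 between 30.0 and 53.8 CPM in se-2 hen2-2 and at most 8.14 CPM in WT.

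Some genes that act on RNA were raised. Of 78 splicing factor genes tested 2 rose (2.56%, beside 1.71% of all genes) and none fell (median 0.07), and of 219 RNA-binding protein genes 8 rose (3.65%) and none fell (median -0.02). The RNA-binding number was 3 without replicate 3 of either genotype or WT replicate 2, 4 without se-2 hen2-2 replicate 2, 5 without WT replicate 1 and 6 without se-2 hen2-2 replicate 1. AT3G04160, annotated as a protein of the U11/U12 small nuclear ribonucleoprotein of the minor spliceosome, was at 3.47, 4.40 and 3.68 CPM in se-2 hen2-2 libraries, against 0.754, 0.948 and 1.14 CPM in WT libraries (log2 fold change 2.03 ± 0.32, adjusted p = 0.0078). EMB2770, a pre-mRNA splicing factor, was at 29.4, 26.2 and 25.2 CPM in se-2 hen2-2, against 13.5, 14.5 and 14.4 CPM in WT (log2 fold change 0.93 ± 0.15, adjusted p = 0.0092). Neither gene overlapped between the genotypes, and both were called with each library left out. SR30, a serine/arginine-rich splicing factor named after its values were seen, was at 12.7, 14.4 and 14.2 CPM in se-2 hen2-2, against 6.45, 4.82 and 6.82 CPM in WT (log2 fold change 1.19 ± 0.21, adjusted p = 0.013), and its call was lost without se-2 hen2-2 replicate 2 (0.057) or WT replicate 2 (0.074).

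Other gene families had few called members, and these families were picked for having some. Over all genes tested, 1.71% rose and 0.668% fell. Of 505 pentatricopeptide repeat genes 9 rose (1.78%) and 3 fell, of 162 F-box genes 5 rose (3.09%) and 1 fell, of 132 sugar transporter genes 5 rose (3.79%) and 1 fell, and of 117 NBS-LRR genes 4 rose (3.42%). Of 95 lectin genes 4 rose (4.21%) and 3 fell (3.16%), of 97 UDP-glycosyltransferase genes 3 rose (3.09%) and 3 fell (3.09%), of 153 receptor-like and cysteine-rich kinase genes 4 rose (2.61%), and of 40 glutathione S-transferase genes 3 rose (7.50%). These numbers changed when a library was left out. Without WT replicate 2 the raised members, in the order given, were 2, 2, 1, 2, 1, 0, 2 and 0, and without se-2 hen2-2 replicate 2 they were 2, 2, 2, 2, 2, 1, 2 and 1. In the fit that lacked se-2 hen2-2 replicate 3 the members raised numbered 4, 2, 3, 2, 2, 2, 3 and 3. Leaving out WT replicate 1 gave 2, 2, 3, 4, 3, 2, 3 and 3, and for WT replicate 3 the counts were 3, 1, 2, 2, 2, 2, 2 and 2. The lowered members ranged from 0 to 6 for pentatricopeptide repeat genes, 0 to 4 for lectin genes and 0 to 2 for UDP-glycosyltransferase genes, with 0 lowered without replicate 2 of either genotype for pentatricopeptide repeat genes, replicate 2 or 3 of either genotype for lectin genes and WT replicate 3 for UDP-glycosyltransferase genes. The 6 lowered pentatricopeptide repeat genes came without se-2 hen2-2 replicate 1. In the iron list, IMA1, a peptide that signals iron shortage, was at 2.21, 2.89 and 5.68 CPM in se-2 hen2-2, against 0.258, 0.114 and 0.602 CPM in WT (log2 fold change 3.50 ± 0.65, adjusted p = 0.016), and it was the 1 of 15 members that passed the test. Its call was lost when replicate 3 of se-2 hen2-2 (0.064) or replicate 1 (0.070) or 2 (0.065) of WT was left out.

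The lowered genes included PP2-A1, a lectin of phloem sap, which had the smallest adjusted p among them. PP2-A1 (chr4:10773804-10775942) was at 3.85, 3.42 and 5.68 CPM in se-2 hen2-2 libraries, against 21.1, 18.5 and 22.8 CPM in WT libraries (log2 fold change -2.27 ± 0.23, adjusted p = 0.00053). It was the 1 of 4 phloem markers that passed the test, and the 4 together were at 17.7 to 22.7 CPM in se-2 hen2-2, against 41.3 to 44.6 CPM in WT. The companion cell gene SUC2, a defining phloem marker, was at 13.5, 10.5 and 12.2 CPM in se-2 hen2-2, against 18.2, 16.4 and 13.6 CPM in WT (adjusted p = 0.36). AAP2, an amino acid permease that loads the phloem, was at 0.852, 1.68 and 2.53 CPM in se-2 hen2-2 libraries, against 13.0, 11.7 and 11.3 CPM in WT libraries (log2 fold change -2.84 ± 0.33, adjusted p = 0.0011). Neither PP2-A1 nor AAP2 overlapped between the genotypes, and the part of phloem cell number in these values was not tested.

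Of the genes known to rise in darkness or sugar shortage, SEN1 and ASN1 fell. Of 19 tested these 2 fell (10.5%, beside 0.668% of all genes) and none rose, 15 were below 0, and the median was -0.26. SEN1, a gene of dark-treated and senescing leaves, was at 2.48, 2.45 and 3.20 CPM in se-2 hen2-2 libraries, against 11.0, 26.6 and 29.8 CPM in WT libraries (log2 fold change -3.05 ± 0.33, adjusted p = 0.00068). ASN1, asparagine synthetase, was at 3.71, 2.47 and 6.46 CPM in se-2 hen2-2 libraries, against 7.54, 35.1 and 47.0 CPM in WT libraries (log2 fold change -2.83 ± 0.55, adjusted p = 0.019). In WT, replicate 1 was the lowest library for both genes, and the mutant libraries were still below it. SEN1 kept its call with each library left out. The list had 1 lowered member where ASN1 was lost. ASN1 lost its call without se-2 hen2-2 replicate 1 (0.058) or 2 (0.097) or WT replicate 2 (0.075) or 3 (0.065). MAF1, a MADS-box repressor of flowering, was at 0.169, 0.425 and 1.54 CPM in se-2 hen2-2, against 4.63, 6.28 and 7.78 CPM in WT (log2 fold change -3.16 ± 0.59, adjusted p = 0.017) and was the 1 of 9 flowering genes that passed the test. Its call was lost without se-2 hen2-2 replicate 2 (0.082), WT replicate 2 (0.058) or WT replicate 3 (0.053).

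A few nuclear genes of the photosynthetic apparatus were called as lowered, and their number depended on the fit. Of 67 photosystem and antenna protein genes tested 3 fell (4.48%, beside 0.668% of all genes) and none rose, 59 were below 0, and the median was -0.39. Their summed level was between 10598 and 14736 CPM in se-2 hen2-2, against 16116 to 20569 CPM in WT. LHB1B1, a light-harvesting protein of photosystem II, was at 56.1, 79.6 and 108 CPM in se-2 hen2-2 libraries, against 170.1, 193 and 190.3 CPM in WT libraries (log2 fold change -1.18 ± 0.22, adjusted p = 0.015). PSBX, a small subunit of photosystem II, was at 31.2, 29.9 and 39.2 CPM in se-2 hen2-2, against 55.1, 69.2 and 50.1 CPM in WT (log2 fold change -0.80 ± 0.16, adjusted p = 0.025). The libraries did not overlap for either gene. LHB1B1 lost its call without se-2 hen2-2 replicate 2 (0.068) or WT replicate 2 (0.069), and PSBX was called without se-2 hen2-2 replicate 3 (0.029) or WT replicate 3 (0.036) only. The number of lowered members was 0 without se-2 hen2-2 replicate 2 or WT replicate 2, 1 without replicate 1 of either genotype, 2 without se-2 hen2-2 replicate 3 and 5 without WT replicate 3. With a term for replicate number in the fit of 12 libraries it was 26, where 696 of all genes fell. DESeq2 lowered 16 (467 of all genes), and the 6 libraries alone lowered 0 (23 of all genes). All 5 leaf mesophyll markers were below 0, and GLDP1, a photorespiratory glycine decarboxylase, was at 76.5, 94.2 and 119 CPM in se-2 hen2-2, against 213, 175 and 166 CPM in WT (log2 fold change -0.94 ± 0.22, adjusted p = 0.046). GLDP1 was called without se-2 hen2-2 replicate 3 only (0.048) and reached 0.17 without se-2 hen2-2 replicate 2.

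Genes of chlorophyll synthesis were picked after their values were seen. No list of the pathway was counted, so the share of its genes that fell is not given. PORA and PORB encode protochlorophyllide oxidoreductase, the light-requiring step. PORA was at 0.739, 0.957 and 2.18 CPM in se-2 hen2-2 libraries, against 6.12, 19.0 and 19.5 CPM in WT libraries (log2 fold change -3.54 ± 0.54, adjusted p = 0.0067). PORB was at 103, 85.3 and 96.9 CPM in se-2 hen2-2 libraries, against 179.6, 247 and 196 CPM in WT libraries (log2 fold change -1.13 ± 0.16, adjusted p = 0.0038). Both were lower in every mutant library than in any WT library, and both were called with each library left out. The earlier enzymes HEMC (-1.07 ± 0.21, adjusted p = 0.022) and PPOX (-0.93 ± 0.18, adjusted p = 0.018) also fell. HEMC was called without se-2 hen2-2 replicate 3 (0.029) or WT replicate 3 (0.039) only. PPOX lost its call without se-2 hen2-2 replicate 2 (0.074), WT replicate 2 (0.068) or WT replicate 3 (0.065).

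Other lowered genes, likewise picked after their values were seen, act in plastid fatty acid synthesis or translation. Neither function was counted as a list of its own, so these are single genes and not a result for the function. CAC2, the biotin carboxylase of plastid acetyl-CoA carboxylase, was at 22.0, 22.2 and 22.6 CPM in se-2 hen2-2 libraries, against 40.4, 40.0 and 37.0 CPM in WT libraries (log2 fold change -0.82 ± 0.15, adjusted p = 0.014). MOD1, an enoyl-ACP reductase of fatty acid synthesis, was at 11.0, 8.91 and 10.2 CPM in se-2 hen2-2, against 19.9, 21.5 and 16.3 CPM in WT (log2 fold change -0.93 ± 0.18, adjusted p = 0.020). PSRP4, a protein of the plastid ribosome, was at 4.98, 5.38 and 5.98 CPM in se-2 hen2-2, against 10.6, 9.84 and 10.3 CPM in WT (log2 fold change -0.91 ± 0.16, adjusted p = 0.012). The folds were near 2 and the libraries did not overlap. CAC2 lost its call without replicate 2 of se-2 hen2-2 (0.065) or of WT (0.068), PSRP4 without se-2 hen2-2 replicate 2 (0.058), and MOD1 without any library but se-2 hen2-2 replicate 1 and WT replicate 3 (up to 0.10). Of 319 ribosomal protein genes, plastid and cytosolic together, 5 fell (1.57%, beside 0.668% of all genes) and 1 rose (median -0.12). The number lowered was 0 without se-2 hen2-2 replicate 2, 1 without any 1 of the WT libraries, 3 without se-2 hen2-2 replicate 3 and 4 without se-2 hen2-2 replicate 1. It was 23 with a term for replicate number in the fit of 12 libraries, 12 in DESeq2 and 0 with the 6 libraries alone. FBA5, an aldolase of sugar metabolism, was at 22.6, 18.0 and 21.7 CPM in se-2 hen2-2, against 50.7, 57.5 and 58.5 CPM in WT (log2 fold change -1.42 ± 0.18, adjusted p = 0.0020) and AILP1, annotated as an aluminum induced protein, at 50.1, 56.6 and 58.0 CPM in se-2 hen2-2, against 123, 159 and 148 CPM in WT (log2 fold change -1.39 ± 0.15, adjusted p = 0.00080), both called with each library left out.

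**Figure D4:**
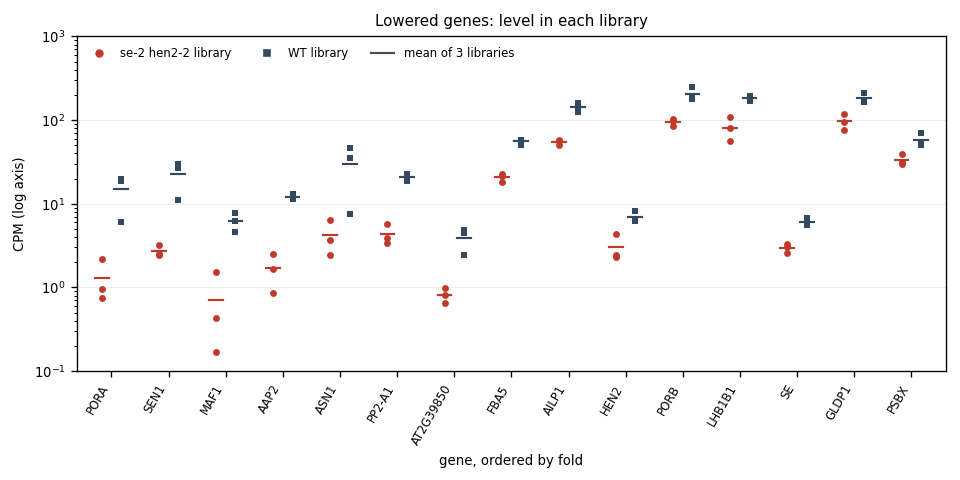
Level in CPM (log axis) of 15 lowered genes in each se-2 hen2-2 library (red circles) and each WT library (dark squares), with the mean of the 3 libraries as a bar. The order is roughly from the largest to the smallest fold, but SEN1 stands before MAF1 and PORB before LHB1B1. PP2-A1 lies between 3.42 and 5.68 CPM in se-2 hen2-2 and between 18.5 and 22.8 CPM in WT, and for every gene shown the 2 genotypes do not overlap.

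The chloroplast genome's own genes were lower in part. Of 133 tested 13 fell (9.77%, beside 0.668% of all genes) and 1 rose, 90 were below 0, and the median was -0.25. ATCG01110 was at 141, 127 and 163 CPM in se-2 hen2-2, against 265, 288 and 276 CPM in WT (log2 fold change -0.95 ± 0.13, adjusted p = 0.0037), and ATCG01100 was at 437, 445 and 553 CPM in se-2 hen2-2, against 919, 933 and 911 CPM in WT (log2 fold change -0.95 ± 0.13, adjusted p = 0.0038). ATCG00700, the raised gene, was at 393, 370.4 and 297 CPM in se-2 hen2-2, against 141, 153 and 181 CPM in WT (log2 fold change 1.16 ± 0.15, adjusted p = 0.0026). The libraries did not overlap for these 3 genes. Fewer than 13 were lowered whichever library was left out. Dropping replicate 3 of either genotype gave 10. For replicate 1 the number was 8 (se-2 hen2-2 library dropped) or 7 (WT library dropped), and for replicate 2 it was 3 or 4 in the same order. Of the 13 genes, 3 kept their call in all 6 of these fits and 1 was called in none. The cause of the lower numbers was not tested. The chloroplast share of a library itself ranged from 50.6 to 70.2% in se-2 hen2-2 and from 51.7 to 71.8% in WT. None of the 98 mitochondrial genes tested passed the edgeR test (median -0.05), with 2 above and 6 below WT at an unadjusted p under 0.05, and 1 raised and 4 lowered by DESeq2. Beside this, 1570 of all 19454 genes tested were above and 1268 below WT at that unadjusted p. DESeq2 raised 752 and lowered 467 of 20347 genes.

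The single mutants of the same experiment give the levels on either side of the double mutant. These comparisons share the se-2 hen2-2 libraries by which the genes were called, so their values are set side by side as a description. MIR159b was at 5.32, 5.83 and 5.39 CPM in hen2-2 and 3.38, 3.08 and 3.32 CPM in se-2. MIR173 was at 0.0899, 0.0911 and 0.0382 CPM in hen2-2 and 0.0505, 0.0619 and 0.260 CPM in se-2, which is near the WT level, and the log2 fold change of se-2 hen2-2 was 5.49 ± 0.78, adjusted p = 0.012 over hen2-2 and 4.86 ± 0.76, adjusted p = 0.013 over se-2. For MIR156c the mean was 1.24 CPM in hen2-2 and 5.59 CPM in se-2, and the double mutant did not differ from se-2 past the threshold (0.08 ± 0.31, adjusted p = 0.97). The miRNA genes thus did not share a single order of genotypes.

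Transcripts of other classes had other orders. U3D was at 188, 211 and 235 CPM in hen2-2 and 76.2, 107 and 93.7 CPM in se-2, and the log2 fold change of the double mutant was 0.33 ± 0.19, adjusted p = 0.63 over hen2-2 and 1.53 ± 0.20, adjusted p = 0.0048 over se-2. EMB2770 averaged 32.7 CPM in hen2-2 and 12.8 CPM in se-2. For both genes hen2-2 lay near the double mutant and se-2 near WT. PP2-A1 had the opposite order, at 18.3, 14.4 and 16.6 CPM in hen2-2 and 2.09, 3.33 and 2.51 CPM in se-2, with the double mutant at -1.93 ± 0.23, adjusted p = 0.0053 against hen2-2 and 0.71 ± 0.23, adjusted p = 0.24 against se-2.

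Among the sulfur, flavonoid and starch genes, the examples given here were highest in the double mutant. LSU1 was at 0.180, 0.0715 and 0.134 CPM in hen2-2 and 0.483, 1.42 and 0.871 CPM in se-2, and the log2 fold change of se-2 hen2-2 was 7.24 ± 0.69, adjusted p = 0.0016 over hen2-2 and 4.40 ± 0.59, adjusted p = 0.0053 over se-2. F3H averaged 2.49 CPM in hen2-2 and 3.43 CPM in se-2, with differences of 3.86 ± 0.62, adjusted p = 0.021 and 3.39 ± 0.60, adjusted p = 0.024. APL3 averaged 6.99 CPM in hen2-2 and 6.78 CPM in se-2, with differences of 2.53 ± 0.22, adjusted p = 0.00077 and 2.57 ± 0.22, adjusted p = 0.00044. Of the 8 raised sulfur genes, 6 were called over hen2-2 and 3 over se-2, and of the 6 raised flavonoid genes, 1 was called over hen2-2 and 3 over se-2, F3H being the 1 called over both. Of all 333 raised genes, 65 were called over hen2-2 and 102 over se-2. WT libraries were at 0.218 CPM or less for LSU1, 2.60 CPM or less for F3H and 8.14 CPM or less for APL3.

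**Figure D5:**
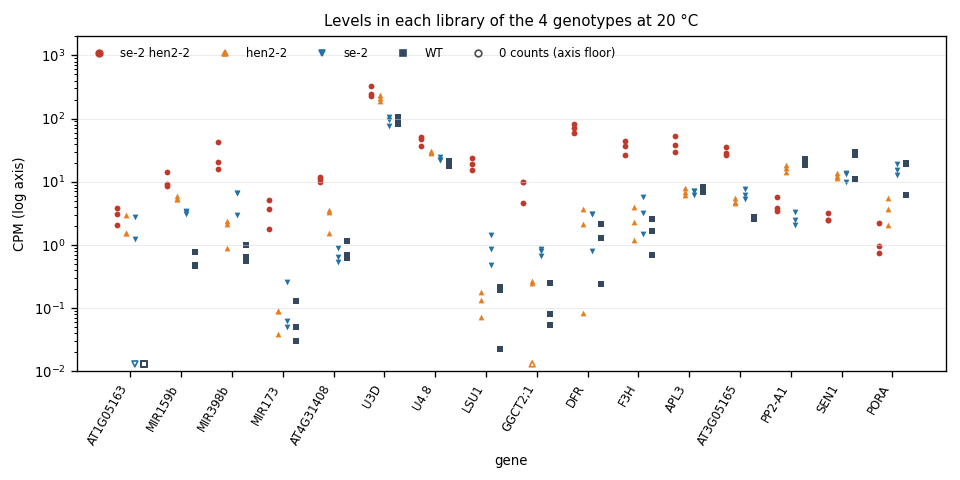
Level in CPM (log axis) of 16 called genes in each library of se-2 hen2-2, hen2-2, se-2 and WT at 20 °C, from left to right within a gene, with libraries at 0 counts drawn open at the axis floor. U3D in hen2-2 lies near se-2 hen2-2, PP2-A1 in se-2 lies near se-2 hen2-2, and for LSU1, DFR and APL3 all libraries of both single mutants and of WT lie below those of se-2 hen2-2.

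The experiment at 22 °C compared hen2-2 with WT in libraries that none of the values above used. There 214 of 19506 genes rose (1.1%) and 49 fell (0.251%), and with a replicate block, which its libraries support, 1382 rose (7.08%) and 1012 fell (5.19%). Of the 333 genes raised in se-2 hen2-2, 304 were tested at 22 °C. Of these, 62 (20.4%) rose in hen2-2 and none fell, and with the replicate block 154 rose (50.7%) and 13 fell (4.28%). Over all 18623 genes tested in both experiments 0.95% rose, and 6.78% with the block. The median log2 fold change at 22 °C was 0.65 over the 304 genes and 0.02 over all. The 130 lowered genes had a median of 0.00 there, with 1 lowered, which was HEN2 (log2 fold change -1.52 ± 0.14, adjusted p = 0.013), and none raised, and with the block 17 fell and 1 rose.

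The classes of raised genes differed at 22 °C. All 36 raised genes of snoRNA, lncRNA, antisense and other non-coding classes tested were above 0 (median 1.73), of which 13 rose, or 28 with the block. All 20 raised miRNA genes tested were above 0 as well (median 1.69), of which 3 rose, or 14 with the block. Those tested were 36 of 48 raised genes of the former classes and 20 of 29 raised miRNA genes. A gene that reaches the minimum count through the hen2-2 libraries alone has to be above 0, so these signs describe the tested genes only. The raised snRNA genes went both ways, with 4 of 9 tested above 0 (median -0.16, or 0.19 with the block). Of them, 2 rose with or without the block. With the block they ranged from -1.21 ± 0.88 (U4.8) to 10.4 ± 0.47 (U1.5). The values at 22 °C are estimated counts, and the division of reads between near-identical U1, U2 and U4 copies is uncertain there too. The 14 sulfur genes had a median of 0.07 and the 13 flavonoid genes tested there one of 0.36, with no gene raised in either list with or without the block and 3 sulfur genes lowered with it. The calls at 22 °C changed with the libraries fitted. Leaving out replicate 1 or 2 of either genotype left at most 1 gene raised and at most 1 lowered. Leaving out hen2-2 replicate 3 left 102 raised and 16 lowered, and leaving out WT replicate 3 left 191 raised and 77 lowered.

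Values of single genes at 22 °C are given as examples, among them protein-coding genes outside the classes above. AT4G31408 was raised in hen2-2 at 22 °C (log2 fold change 2.91 ± 0.19, adjusted p = 0.0094), as were EMB2770 (log2 fold change 1.16 ± 0.14, adjusted p = 0.020), RRP46 (log2 fold change 1.07 ± 0.14, adjusted p = 0.022) and AT1G12290 (log2 fold change 2.00 ± 0.20, adjusted p = 0.013). LSU1 (log2 fold change 0.14 ± 0.59, adjusted p = 0.95) and PP2-A1 (log2 fold change -0.29 ± 0.16, adjusted p = 0.52) did not pass the test there, with or without the block. MIR167a passed it (log2 fold change 1.74 ± 0.24, adjusted p = 0.027). MIR159b did not (log2 fold change 2.60 ± 0.56, adjusted p = 0.093), but passed with the replicate block (2.67 ± 0.21, adjusted p = 0.0012). With the block MIR166a (0.11 ± 0.23, adjusted p = 0.79) and MIR157a (0.92 ± 0.55, adjusted p = 0.32) did not pass. The raised starch genes went both ways with the block. GPT2 (-1.38 ± 0.26, adjusted p = 0.020) and APL3 (-0.47 ± 0.09, adjusted p = 0.021) were lowered there, and APL4 (0.92 ± 0.11, adjusted p = 0.0041) was raised.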

How the data were processed

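RNA was depleted of ribosomal RNA and sequenced as stranded paired-end libraries. For the experiment at 20 °C the authors trimmed the first 12 nt, removed adapters (Trimmomatic) and ribosomal reads (Bowtie), aligned to TAIR10 with HISAT2 and deposited a table of gene counts made from StringTie coverage, so a value is derived from coverage and is not a tally of reads. For the experiment at 22 °C the authors deposited an estimated count and a TPM value per transcript (Salmon is named in the submitters' processing notes), and the estimated counts were summed per gene and rounded. TPM was not used. Whether counting used the strand is not given in the sources used here. The small RNA libraries were not analysed here.

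Counts were tested with edgeR 4.0.16 in R 4.3.3 (filterByExpr, TMM, two-sided quasi-likelihood F test, Benjamini-Hochberg over all genes tested, called at an adjusted p under 0.05), with the 12 libraries of 4 genotypes at 20 °C in a shared fit. Of 32832 genes, 24069 had a count and 19454 were tested. All 32547 nuclear identifiers matched the TAIR10.1 annotation (RefSeq), which has the nuclear coordinates of TAIR10, and 133 chloroplast and 152 mitochondrial identifiers had no name. Fold changes are given ± SE, which is the absolute log2 fold change divided by the square root of the F statistic. The spread behind it is shared over all libraries of the fit. CPM use TMM library sizes.

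Genes named are HEN2 and SE, the 12 with the smallest adjusted p and the 6 with the largest fold in each direction among called genes without overlap, and up to 4 called members per direction of each list, and not all of them are set out. Lists were of pathways, markers, gene classes and annotated families. Genes and lists were chosen with earlier results of these data known, and lists were described by counts and medians without a test. Alternatives were DESeq2 1.42.0, other scalings and filters, terms for replicate or depth, the 6 libraries alone and each library left out. DESeq2 with a replicate block and the libraries left out at 22 °C were added after seeing the data. At 22 °C, deviations from the genotype mean correlated by 0.66, 0.41 and 0.73 between libraries of the same number, so those numbers were taken as pairs from the data and not from the labels. The fit was also run on counts simulated without a replicate effect, so that run cannot show how it treats the replicate 1 libraries.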

Additional observations from a re-analysis of the deposited data

How the results depend on the processing

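None of the 463 called genes changed sign under any of 16 alternative settings. Their libraries were fully separate, so a change of sign was hardly possible and its absence is no test. The numbers called did not hold, and the cause was not tested except where fewer samples were fitted. Against 333 raised and 130 lowered genes, leaving out a library gave 124 to 307 raised and 28 to 153 lowered. The 6 libraries alone gave 140 raised and 23 lowered genes. A term for libraries of over 100 M counts (M, 1000000) gave 526 and 284, a term for replicate 1 gave 841 and 640, and DESeq2 gave 752 and 467. Other scalings and no filter stayed within 1.5 times. Of the 132 called genes named by rule, 54 were called in all 16 settings, and of 2107 values under the alternatives 349 lost the call.

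Same-numbered libraries of se-2 hen2-2 and WT correlated by 0.38, 0.01 and 0.14 in their deviations, so the numbers were not taken as pairs at 20 °C, and not every library correlated best with its own number. The replicate 1 libraries of all 4 genotypes did lie together, at -80.5 to -59.6 on the first principal component (the fit with a term for them is given above). A replicate block gave 868 raised and 696 lowered genes with 12 libraries, 347 and 148 with the 6 libraries, and 1456 and 1300 in DESeq2, the last chosen after seeing the data. At 22 °C, against 214 and 49, the block gave 1382 raised and 1012 lowered genes, no filter gave 213 and 66, and leaving out a library gave 0 to 191 raised and 0 to 77 lowered, a setting added after seeing the data.

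Class counts moved with these settings. DESeq2 raised 42 miRNA, 24 snRNA, 44 snoRNA and 48 lncRNA genes and lowered 16 photosystem and antenna genes, where the 6 libraries alone gave 20, 5, 7, 9 and 0. Low levels are limited by depth, since 3 counts over the 3 WT libraries are 0.0102 CPM, and such intervals cover counting error only.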

Other observations

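Some lists without a called member differed widely between libraries of 1 genotype. The 14 jasmonate and wound genes together were at 378 to 846 CPM in se-2 hen2-2 and 174 to 653 CPM in WT, and OPR3, a jasmonate synthesis gene, was at 113, 17.5 and 18.0 CPM in se-2 hen2-2, against 91.3, 13.1 and 10.0 CPM in WT. In that list 3 genes were above and 1 below WT at an unadjusted p under 0.05, and DESeq2 raised 1 and lowered 1. At that unadjusted p, 1570 of all 19454 genes tested were above and 1268 below WT. The evening clock gene TOC1 was at 25.9, 3.10 and 3.66 CPM in se-2 hen2-2, against 30.3, 6.72 and 5.06 CPM in WT, and all 9 day and evening clock genes had fold changes below 0 with none past the edgeR test, an unadjusted p under 0.05 or DESeq2 (median -0.37). In both genotypes replicate 1 had the highest OPR3 and TOC1 levels. VSP2, a jasmonate-responsive storage protein, was at 29.3, 2.91 and 3.28 CPM in se-2 hen2-2, against 0.704, 0.508 and 0.309 CPM in WT and missed the threshold (adjusted p = 0.063), with no overlap between the genotypes.

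All 10 nitrate genes tested were above 0 (median 0.63), and none was called by edgeR, with 4 at an unadjusted p under 0.05 and 1 called by DESeq2. All 12 copper genes tested, among them targets of miR398 and miR408, missed each of these thresholds (median -0.19). Of 54 small auxin-up RNA (SAUR) genes 47 were above 0 (median 0.73), and none was called, with 7 at an unadjusted p under 0.05 and 3 raised by DESeq2. Heat shock (4 tested), salicylic acid (12 tested) and cold, drought and abscisic acid genes (18 tested) had no called member, with medians of -0.04, 0.39 and -0.12. At an unadjusted p under 0.05 they had 0, 3 and 2 members, and DESeq2 called 1, a salicylic acid gene. Of 46 histone genes none was called (median 0.15), 1 was above WT at an unadjusted p under 0.05 and DESeq2 called none. For all of these lists, the background at that unadjusted p was 1570 genes above and 1268 below WT of 19454 tested. DESeq2 raised 752 and lowered 467 of 20347 genes.

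Promoter words were searched on both strands from 250 bases before to 50 bases after each start, in RefSeq sequence of TAIR10.1. The G-box CACGTG was present in 14.4% of 243 raised protein-coding genes, 10.3% of 116 lowered ones and 8.94% of all 18437 tested. The evening element AAAATATCT was present in 3.70%, 6.90% and 3.11% of the same sets, the W-box TTGACC in 12.3%, 8.62% and 14.3%, and the telo-box AAACCCTA in 5.35%, 7.76% and 5.58%. These shares carry no test.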
